A study of Oryza sativa Indica Group with 5 samples.

Results

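Gibberellins are diterpenoid hormones that drive stem elongation and, in the germinating cereal grain, the secretion of hydrolases by the aleurone. GA 20-oxidases carry precursors to the last intermediates, GA 3-oxidases make the bioactive forms, and GA 2-oxidases inactivate them. The receptor GID1 binds a bioactive gibberellin and then the DELLA repressor SLR1, which is degraded, and the transcription factor GAMYB acts downstream on alpha-amylase genes.

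Described here are 9 rice loci of this pathway, out of 48857 loci on the array. For synthesis they are GA20ox1 (LOC_Os03g63970), GA20ox2 or SD1 (LOC_Os01g66100), GA3ox1 (LOC_Os05g08540) and GA3ox2 or D18 (LOC_Os01g08220). For inactivation they are GA2ox1 (LOC_Os05g06670) and GA2ox3 (LOC_Os01g55240), and for signalling GID1 (LOC_Os05g33730), SLR1 (LOC_Os03g49990) and GAMYB (LOC_Os01g59660). They were listed by locus name and not by a rule on measured values, though earlier results of these data were known. All 9 had at least 1 probe, with 13 probes in all, and 8 were bright enough to be tested. By the chromosome in the locus name, SD1, GA3ox2, GA2ox3 and GAMYB lie on chromosome 1, GA20ox1 and SLR1 on chromosome 3, and GA3ox1, GA2ox1 and GID1 on chromosome 5. Which exon or UTR a probe covers was not analysed here.

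The study compared developing seed, taken 16 days after flowering, of indica-group rice accessions with haplotype 8 and high-amylose grain (3 arrays) and with haplotype 4 and waxy grain (2 arrays). Each array held another accession, on a slide of its own, so a difference between arrays of a group includes the genetic difference between accessions. All plants were untreated, with glasshouse days at 29 °C and nights at 21 °C. The labels do not say which SD1 allele an accession carries, and seed was ground whole, so fewer cells of a type and less RNA per cell cannot be told apart.

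The arrays differed in brightness. The 75th percentile of the processed intensity, by which each array was scaled, was 183, 108 and 88.8 for high-amylose seed (replicates 1, 2 and 3), against 203 and 212 for waxy seed. Replicate 1, replicates 2 and 3, and the waxy arrays were scanned on 3 separate days, each day holding 1 group only, so group and scan day cannot be told apart and no within-day comparison of the groups exists. All 6 endosperm and all 4 embryo and aleurone markers were well above background on every array. The summed scaled signal of the endosperm markers was 1459 to 2000 times the 75th percentile in high-amylose seed and 1535 to 1566 times in waxy seed, and that of the embryo and aleurone markers 576 to 1297 and 612 to 787 times. The 6 markers of green outer layers summed to 1.11, 3.78 and 11.0 times in high-amylose seed, with 3, 5 and 6 of them well above background, against 1.04 and 1.41 times in waxy seed, with 3 of 6 on each array. The part of these tissue markers in the results below was not tested.

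No gibberellin member passed between high-amylose and waxy seed. Of the 8 tested, 0 had an adjusted p under 0.05 (limma with Benjamini-Hochberg over 28945 loci), where 0.0276% of all loci did (0.0104% higher and 0.0173% lower), and 0 had an unadjusted p under 0.05, where 3.4% of all loci did. The log2 difference, high-amylose minus waxy, was above 0 at 3 members and below 0 at 5, with a median of -0.02, beside 53.9% above 0 and a median of 0.03 over all loci. On the brightest probe of each locus, synthesis and inactivation genes lay between -0.07 and 0.49. The second probes of SD1 and GA2ox3 were at -0.17 and -0.86. On the brightest probes, the negative values of larger size were both in signalling, at GID1 (-1.20) and GAMYB (-1.02). GID1 and GAMYB were at 0.71 and -0.40 without high-amylose replicates 2 and 3, and at -2.15 and -1.33 without replicate 1. GID1 was not well above background on replicates 2 and 3, nor GAMYB on replicate 3. The cause was not tested.

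**Figure D1:**
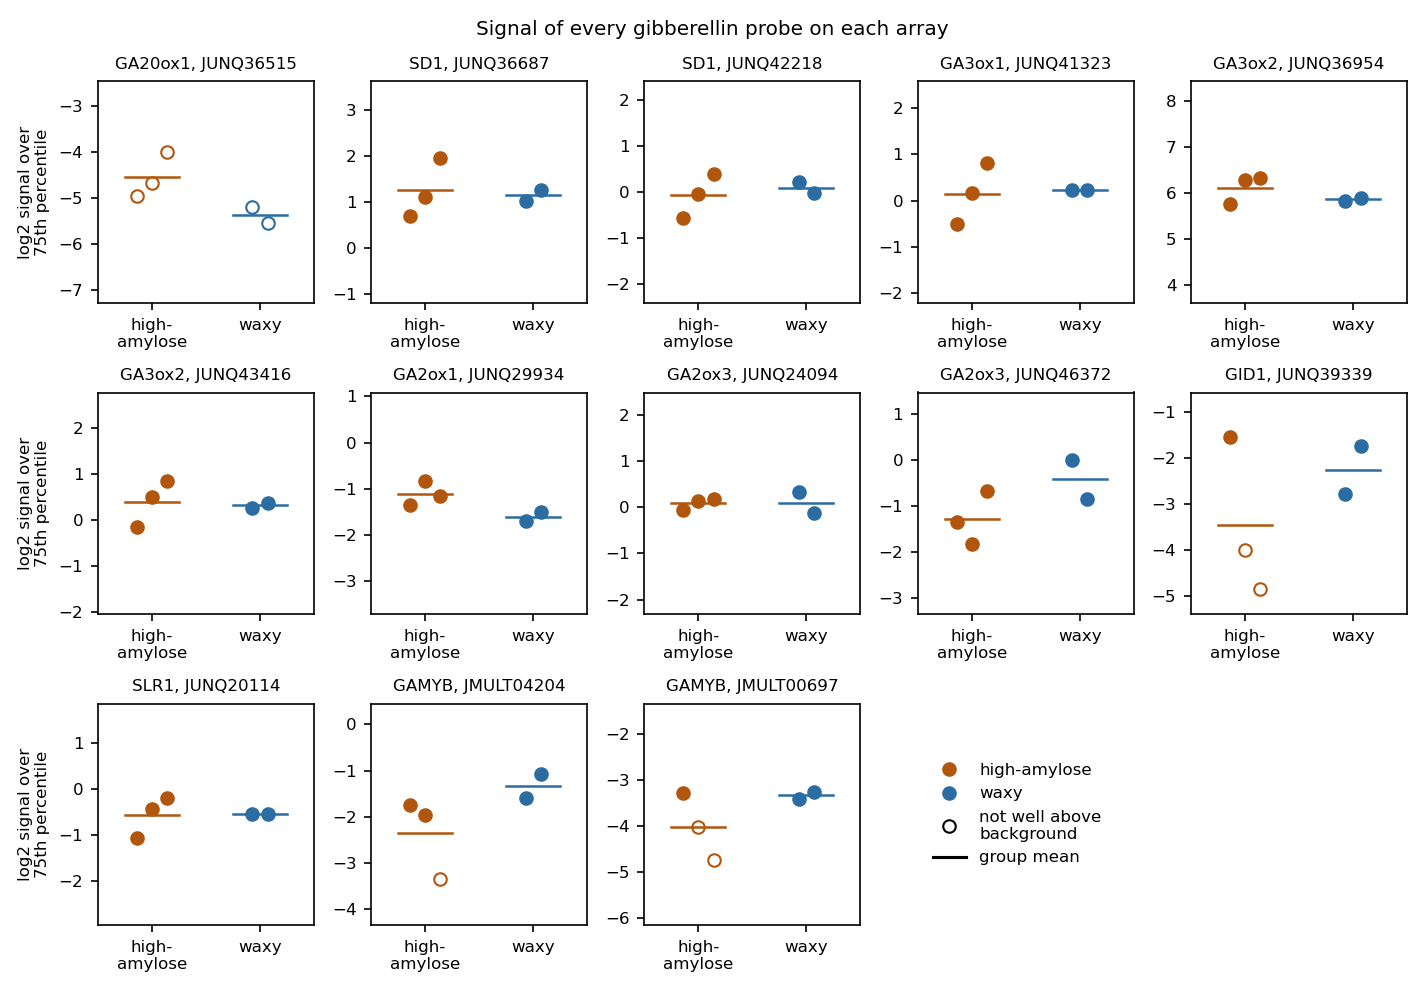
Log2 processed signal minus the array's 75th percentile (vertical axis, log2 units, each panel spanning the same range) for each of the 13 gibberellin probes, with high-amylose arrays left and waxy arrays right in each panel. Each point is an array, open where the probe was not well above background, and lines are group means. The groups overlap in most panels, and the high-amylose points spread most for GID1.

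Among the synthesis genes, GA20ox1, a GA 20-oxidase gene, stayed at background on all 5 arrays. Its processed intensity was 5.92, 4.23 and 5.57 in high-amylose seed, against 5.54 and 4.53 in waxy seed, so it was not tested and no fold is given.

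SD1, the GA 20-oxidase gene whose loss-of-function alleles gave semidwarf rice, was measured by 2 probes on all 5 arrays. Its brighter probe read a log2 signal of 0.69, 1.12 and 1.96 on high-amylose replicates 1, 2 and 3, against 1.03 and 1.27 on waxy replicates 1 and 2. Both waxy values lay inside the high-amylose range. The difference was 0.11 (SE 0.48, 95% interval -0.98 to 1.19, limma adjusted p = 1.00). The second SD1 probe read -0.56, -0.05 and 0.39 in high-amylose seed, against 0.21 and -0.03 in waxy seed, and gave a difference of the opposite sign, -0.17 (SE 0.45). Both probes placed high-amylose replicate 1 lowest and replicate 3 highest of the 5 arrays.

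GA3ox1, a GA 3-oxidase, showed the same arrangement. Its log2 signal was -0.51, 0.16 and 0.81 in high-amylose seed, against 0.22 and 0.23 in waxy seed. The waxy arrays were nearly equal and lay between high-amylose replicates 2 and 3, and the difference was -0.07 (SE 0.48, 95% interval -1.16 to 1.01, limma adjusted p = 1.00).

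GA3ox2, whose mutants are the d18 dwarfs, varied less. Its brighter probe read 5.75, 6.28 and 6.32 in high-amylose seed, against 5.84 and 5.90 in waxy seed. High-amylose replicate 1 lay below both waxy arrays and the other 2 lay above them, with a difference of 0.25 (SE 0.42, 95% interval -0.69 to 1.19, limma adjusted p = 1.00). The second GA3ox2 probe read -0.15, 0.50 and 0.84 in high-amylose seed, against 0.25 and 0.38 in waxy seed, and kept the same array lowest.

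Of the inactivation genes, GA2ox1 was one of 2 tested members whose groups did not overlap. Its log2 signal was -1.36, -0.83 and -1.16 in high-amylose seed, against -1.71 and -1.51 in waxy seed. All 3 high-amylose arrays lay above both waxy arrays, as they did at 8.52% of all loci. The difference of 0.49 was close to its SE of 0.41 (95% interval -0.44 to 1.42, limma adjusted p = 1.00). It stayed above 0 in all 15 alternatives tried, between 0.24 and 0.61, and passed in none of them.

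GA2ox3, the other GA 2-oxidase among the members, was the steadiest member on its brighter probe. It read -0.06, 0.14 and 0.17 in high-amylose seed, against 0.32 and -0.13 in waxy seed. The waxy arrays thus spanned the high-amylose values. The difference was -0.01 (SE 0.41, 95% interval -0.93 to 0.91, limma adjusted p = 1.00). The second GA2ox3 probe, which is dimmer, read -1.36, -1.83 and -0.67 in high-amylose seed, against -0.01 and -0.85 in waxy seed. Its difference was -0.86 (SE 0.50, limma adjusted p = 1.00 with every probe tested apart, where 0.0196% of all probes passed). After each probe was centred on its own mean, the probes differed by up to 0.94 on an array, so the size of this gene's difference depends on the probe.

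In signalling, GID1, the gibberellin receptor, was the member with the widest spread. Its log2 signal was -1.56, -4.00 and -4.83 on high-amylose replicates 1, 2 and 3, against -2.79 and -1.74 on waxy replicates 1 and 2. High-amylose replicate 1 was the highest of the 5 arrays and the other 2 were the lowest, and the probe was well above background on 1 of 3 high-amylose arrays and on both waxy arrays. The SD within high-amylose seed was 1.70 (n = 3), which 2.09% of all loci exceeded. The waxy arrays differed by 1.05, which 10.3% of loci exceeded. The group difference was -1.20 (SE 0.85, 95% interval -3.11 to 0.71, limma adjusted p = 1.00).

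GAMYB, the activator of alpha-amylase genes, was the second member whose groups did not overlap. Its brighter probe read -1.74, -1.97 and -3.36 in high-amylose seed, against -1.59 and -1.08 in waxy seed. All 3 high-amylose arrays lay below both waxy arrays, as they did at 5.03% of all loci, and replicate 3, where the probe was not well above background, lay furthest below. The difference was -1.02 (SE 0.55, 95% interval -2.26 to 0.22, unadjusted p = 0.0960, limma adjusted p = 1.00). The second GAMYB probe, assigned to another transcript of the locus, read -3.29, -4.03 and -4.74 in high-amylose seed, against -3.41 and -3.25 in waxy seed, where replicate 1 lay between the waxy arrays and the groups overlapped. This probe was well above background on replicate 1 of the high-amylose arrays and on both waxy arrays, and its difference of -0.68 (SE 0.51) includes 2 values at background. Replicate 3 also had the lowest summed embryo and aleurone signal among the high-amylose arrays, 576 times the 75th percentile, beside 612 times on waxy replicate 1. Set against the waxy arrays, these markers did not move alike. OLE16, OLE18 and EMP1 read 5.99, 5.19 and 5.74 on replicate 3, their lowest of the 5 arrays. The marker 1-Cys peroxiredoxin read 8.92, 9.57 and 8.72 on high-amylose replicates 1, 2 and 3, against 8.34 and 8.72 in waxy seed. Replicate 3 was thus its lowest high-amylose array too, but not its lowest of the 5. The part of these markers in the GAMYB values was not tested.

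SLR1, the DELLA repressor, read -1.05, -0.43 and -0.19 in high-amylose seed, against -0.53 on each waxy array. The waxy arrays differed by less than 99.9% of all loci did, while the high-amylose SD was 0.45 (n = 3). The difference was -0.03 (SE 0.44, 95% interval -1.01 to 0.96, limma adjusted p = 1.00).

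The groups thus did not overlap at 2 of 8 members, 1 in each direction, where 13.5% of all loci did not, and at 2 of the 12 tested probes, where 13.6% of all probes did not. On the brightest probe of each locus, the intervals of the synthesis and inactivation members and of SLR1 lie between -1.16 and 1.42. The second probes are not included, and that of GA2ox3 was at -0.86 (SE 0.50). The number of arrays limits the precision of all these values.

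**Figure D2:**
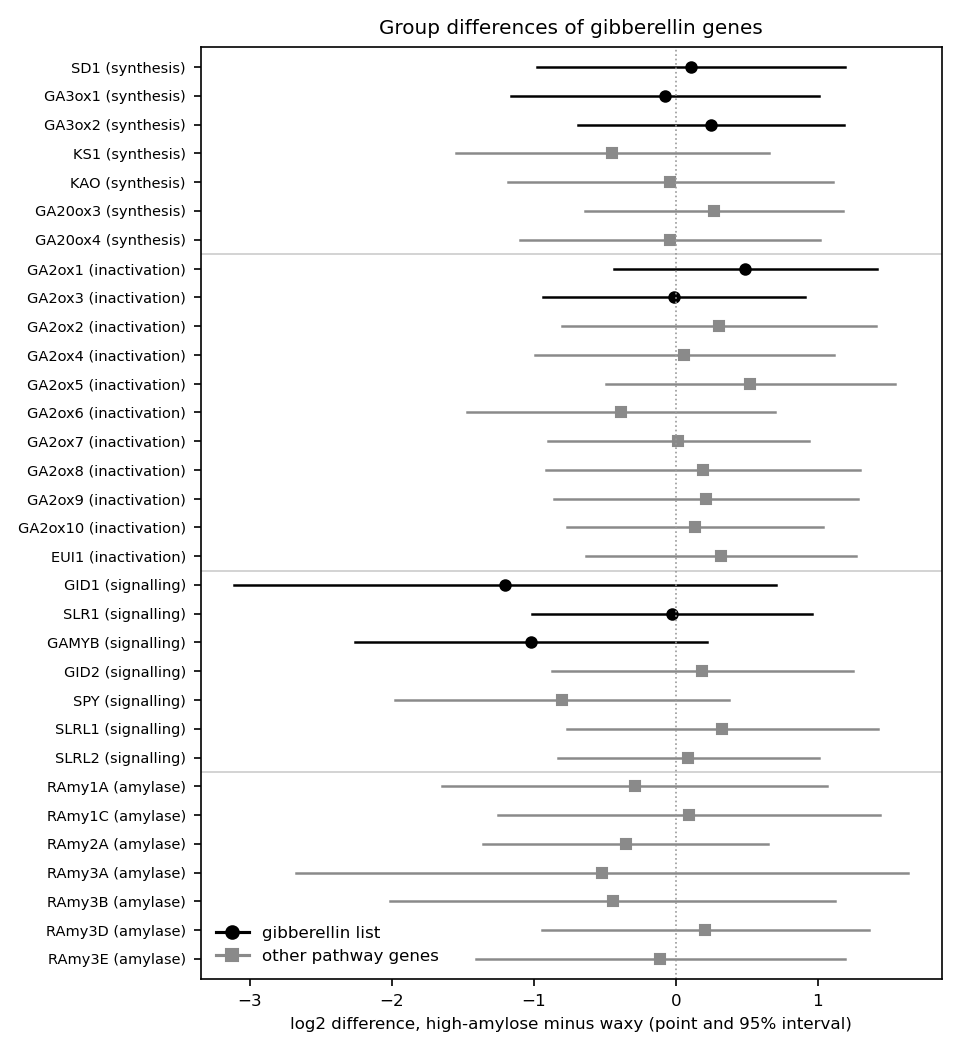
Log2 difference, high-amylose minus waxy (horizontal axis), with its 95% interval for the 8 tested gibberellin members (black circles) and 24 other pathway genes (grey squares), grouped by role from top to bottom. Every interval includes 0, and those of GID1 and RAmy3A are the widest of the 32.

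Before scaling, the members' intensities varied to different degrees over the high-amylose arrays. SLR1 had 88.7, 80.2 and 78.1 in high-amylose seed, which differ 1.14-fold, against 141 and 147 in waxy seed. The 75th percentile of the same high-amylose arrays differed 2.07-fold. The dimmer GA3ox2 probe differed 1.08-fold, the dimmer SD1 probe 1.19-fold and GA3ox1 1.29-fold across the high-amylose arrays before scaling. The brighter GA3ox2 and SD1 probes differed 1.39-fold and 1.47-fold, GA2ox1 1.79-fold, and the GA2ox3 probes 1.76-fold and 2.35-fold. The part of array brightness in the order of the arrays was not tested. GID1 had intensities of 62.4, 6.76 and 3.11 in high-amylose seed, against 29.3 and 63.5 in waxy seed, and its values on high-amylose replicates 2 and 3 were not well above background, so no fold is given among these arrays. GAMYB had 54.9, 27.6 and 8.67 on its brighter probe in high-amylose seed, against 67.3 and 100.1 in waxy seed, with replicate 3 again not well above background.

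**Figure D3:**
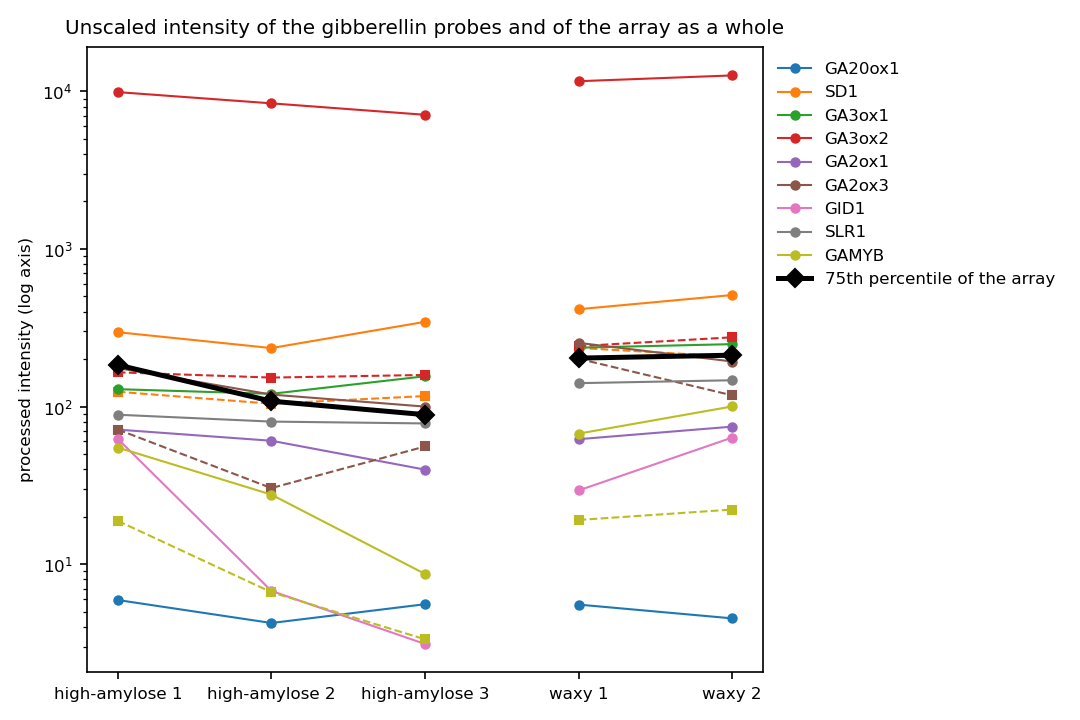
Processed intensity before scaling (vertical log axis) of the gibberellin probes on each of the 5 arrays, with the second probe of a gene dashed with squares, and the array's 75th percentile in black. Lines only join points of one probe within a group. Most probes vary less over the high-amylose arrays than the 75th percentile does, while GID1, GAMYB and the second GA2ox3 probe vary more, GID1 and GAMYB with values that were not well above background.

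Quantile scaling, which fits the whole distribution of an array, left most of these arrangements in place, the exception being the brighter GA3ox2 probe, whose lowest array was then waxy replicate 2. High-amylose replicate 1 still deviated by -0.70 from the mean over arrays at GA3ox1 and by -0.53 at SLR1, and replicate 3 by 0.61 and 0.36. At GID1 the deviations under quantile scaling were 1.51, -0.95 and -2.19 in high-amylose seed, against 0.24 and 1.39 in waxy seed. The median shift over all loci was 0.03 with the 75th percentile and -0.01 under quantile scaling. Replicate 1 was the lowest of the 5 arrays at 4 of 8 members by the 75th percentile (30.6% of all loci) and at 3 of 8 by quantiles (28.2%). Replicate 3 was the highest at 4 of 8 by either scaling, beside 36.5% and 35.6% of all loci.

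The sign of the difference turned on 1 array at SD1, GA3ox1, GA2ox3 and SLR1, all within 0.11 of 0 with every array. Leaving out high-amylose replicate 1 put GA3ox1 at 0.26, GA2ox3 at 0.060 and SLR1 at 0.22, and leaving out high-amylose replicate 3 put SD1 at -0.24. GID1 and GAMYB kept their sign without any 1 array but moved in size. Leaving out high-amylose replicate 1 moved GID1 to -2.15 (SE 0.51, unadjusted p = 0.00530, limma adjusted p = 0.192) and GAMYB to -1.33 (SE 0.54, unadjusted p = 0.0480, limma adjusted p = 0.385). Both remaining high-amylose arrays were then not well above background at GID1, so its size there is not a measured fold. In that fit 2 of 8 members had an unadjusted p under 0.05, as did 12.8% of all loci. Leaving out high-amylose replicates 2 and 3 instead moved GID1 to 0.71 and GAMYB to -0.40. That fit leaves high-amylose replicate 1 alone in its group. GID1 was at -1.73 without waxy replicate 1 and at -0.67 without waxy replicate 2, at -0.51 without high-amylose replicate 3, and at -0.24 under normexp. GAMYB was at -0.52 without high-amylose replicate 3 and at -0.32 under normexp, whose added offset shrinks differences of dim probes. Its direction held in all 14 alternatives that kept the locus.

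**Figure D4:**
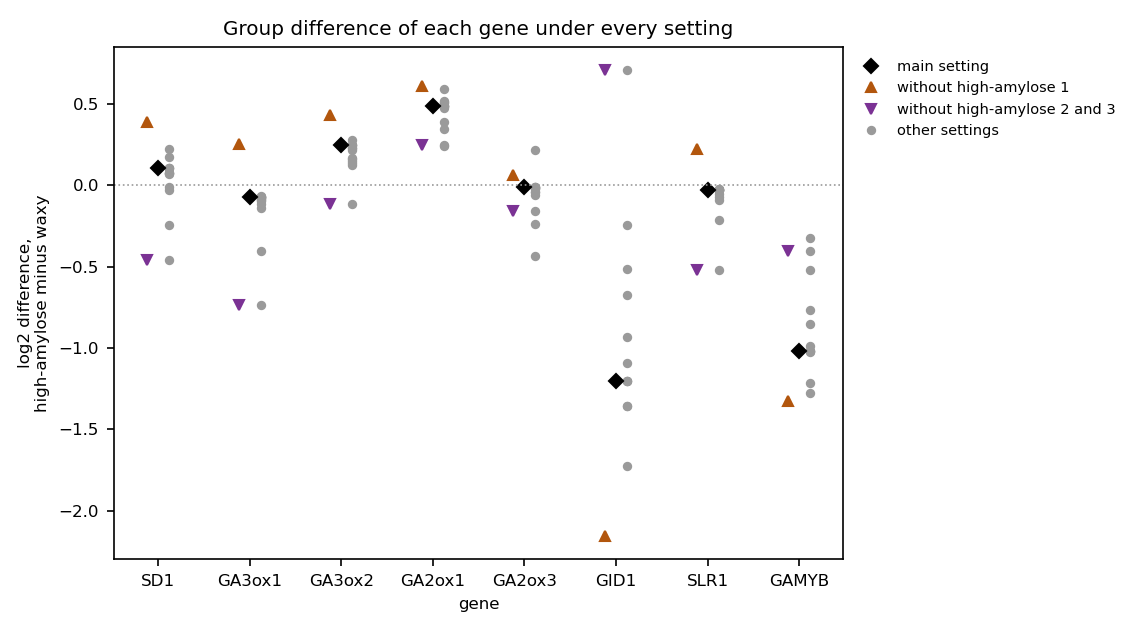
Log2 difference, high-amylose minus waxy (vertical axis), of each tested gibberellin member under the main setting (diamonds), without high-amylose replicate 1 (upward triangles), without high-amylose replicates 2 and 3 (downward triangles) and under the remaining alternatives (grey). GID1 lies at -2.15 and 0.71 under the fits marked by triangles, while GA2ox1 stays above 0 and GAMYB below 0 throughout.

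The rest of the pathway was read from 28 further loci, of synthesis, inactivation and signalling, with alpha-amylase genes among them. Whether each amylase gene responds to gibberellin was not tested. Of the 28 loci, 24 were tested and 0 passed (limma with Benjamini-Hochberg), with 0 at an unadjusted p under 0.05. Differences were above 0 at 14 and below 0 at 10, with a median of 0.07, or above 0 at 11 and below 0 at 13 under quantile scaling. On the brightest probe of each locus the groups overlapped at all 24, where 13.5% of all loci did not overlap and 3.4% had an unadjusted p under 0.05. A dimmer tested probe of GA2ox9 did not overlap, as 13.6% of all probes did not. It read -2.57, -2.20 and -2.12 in high-amylose seed, against -2.69 and -2.88 in waxy seed.

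Of 8 further synthesis genes, 4 could not be tested. Those are CPS1 and KO2 of the early steps and the GA 13-oxidases CYP714B1 and CYP714B2, none of which was well above background on more than 1 array. The other 4 had a median difference of -0.04. KS1, the ent-kaurene synthase, read -1.19, -2.34 and -2.41 in high-amylose seed, against -1.41 and -1.65 in waxy seed. High-amylose replicates 2 and 3 were the lowest here, as at GID1, and the difference was -0.45 (SE 0.49), or -0.84 without high-amylose replicate 1 (limma adjusted p = 0.377). KAO, the ent-kaurenoic acid oxidase, read -2.36, -2.27 and -2.23 in high-amylose seed, against -1.48 and -3.01 in waxy seed. The high-amylose arrays were nearly equal and the waxy arrays lay on either side of them, 1.53 apart, a gap that 4.78% of all loci exceeded. GA20ox3 and GA20ox4, further GA 20-oxidases, were at 0.27 (SE 0.40) and -0.04 (SE 0.47).

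All 9 further inactivation genes were tested, and 8 had differences above 0, with a median of 0.19, against 6 of 9 and a median of 0.088 under quantile scaling. Without high-amylose replicates 2 and 3, which leaves replicate 1 alone in its group, 1 of 9 was above 0, with a median of -0.33. GA2ox6 was at -0.39 (SE 0.48). GA2ox5, at 0.52 (SE 0.45), had the largest difference of the 9 and EUI1, a cytochrome P450 that inactivates gibberellins by epoxidation, was at 0.32 (SE 0.42). On the brightest probe of each locus, high-amylose replicate 3 was the highest array at 7 of the 9 (36.5% of all loci) and replicate 1 the lowest at 6 (30.6%). Under quantile scaling the counts were 6 (35.6%) and 4 (28.2%). SD1 and GA3ox1 had the same arrangement. The brighter GA2ox2 probe for example read 1.75, 2.39 and 3.14 in high-amylose seed, against 2.07 and 2.17 in waxy seed. The second GA2ox2 probe did not share this arrangement. It read -1.59, -0.82 and -1.93 in high-amylose seed, against -0.75 and -1.20 in waxy seed, with replicate 3 lowest. Its difference was -0.48 (SE 0.48), against 0.30 (SE 0.49) on the brighter probe.

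In signalling, SPY, a negative regulator of gibberellin responses, read 0.67, -0.73 and -0.69 in high-amylose seed, against 0.72 and 0.38 in waxy seed. High-amylose replicate 1 lay with the waxy arrays and the other 2 lay over 1 log2 unit below them. The SPY difference was -0.80 (SE 0.52, limma adjusted p = 1.00), and -1.26 without high-amylose replicate 1 (limma adjusted p = 0.232). GID2, the F-box protein that targets SLR1 for degradation, read 3.44, 2.88 and 2.24 in high-amylose seed, against 2.79 and 2.55 in waxy seed, a difference of 0.19 (SE 0.47). SLRL1 and SLRL2, which resemble SLR1 without its DELLA domain, were at 0.33 (SE 0.49) and 0.09 (SE 0.41). The second SLRL1 probe was at 0.26 (SE 0.51), but its high-amylose arrays ran in the reverse order. They read 1.92, 1.57 and 0.46 there, and 5.73, 6.50 and 7.08 on the brighter probe.

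The 7 alpha-amylase genes had a median range over the 5 arrays of 1.99 log2 units. The further synthesis, inactivation and signalling genes had median ranges of 1.21, 1.24 and 1.27, the 3 signalling members 2.28 and all loci 1.13. On the brightest probe of each gene, high-amylose replicate 2 was the highest array at 5 of 7 and replicate 1 the lowest at 5 of 7, under both scalings. Over all loci, replicate 2 was the highest at 21.3% (18% under quantile scaling). Replicate 1 was the lowest at 30.6% (28.2%). RAmy1A, an alpha-amylase gene of the germinating aleurone, read -1.98, -0.07 and -1.52 in high-amylose seed, against -1.32 and -0.48 in waxy seed. The brighter RAmy3E probe read 2.76, 4.76 and 3.68 in high-amylose seed, against 3.92 and 3.77 in waxy seed. The second RAmy3E probe read -0.07, 1.63 and -1.09, against 0.11 and 0.39, with replicate 2 highest and replicate 3 lowest. The second RAmy3D probe read -2.50, -1.12 and -0.84, against -2.35 and -1.78, with replicate 3 highest and replicate 1 lowest. RAmy3A read -0.04, 2.71 and 3.10 in high-amylose seed, against 1.27 and 3.61 in waxy seed, so the waxy accessions differed by 2.34, a gap that 1.74% of all loci exceeded. The group differences of the 7 lay between -0.52 and 0.21, with a median of -0.29. That median was 0.10 without high-amylose replicate 1, -0.62 without replicate 2 and -0.94 without replicates 2 and 3. The array with the lowest GAMYB signal was high-amylose replicate 3. On the brightest probes it was the lowest at 2 of the 7, and at 23.7% of all loci. Those 2 were RAmy1C and RAmy3B, neither of which was well above background there.

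**Figure D5:**
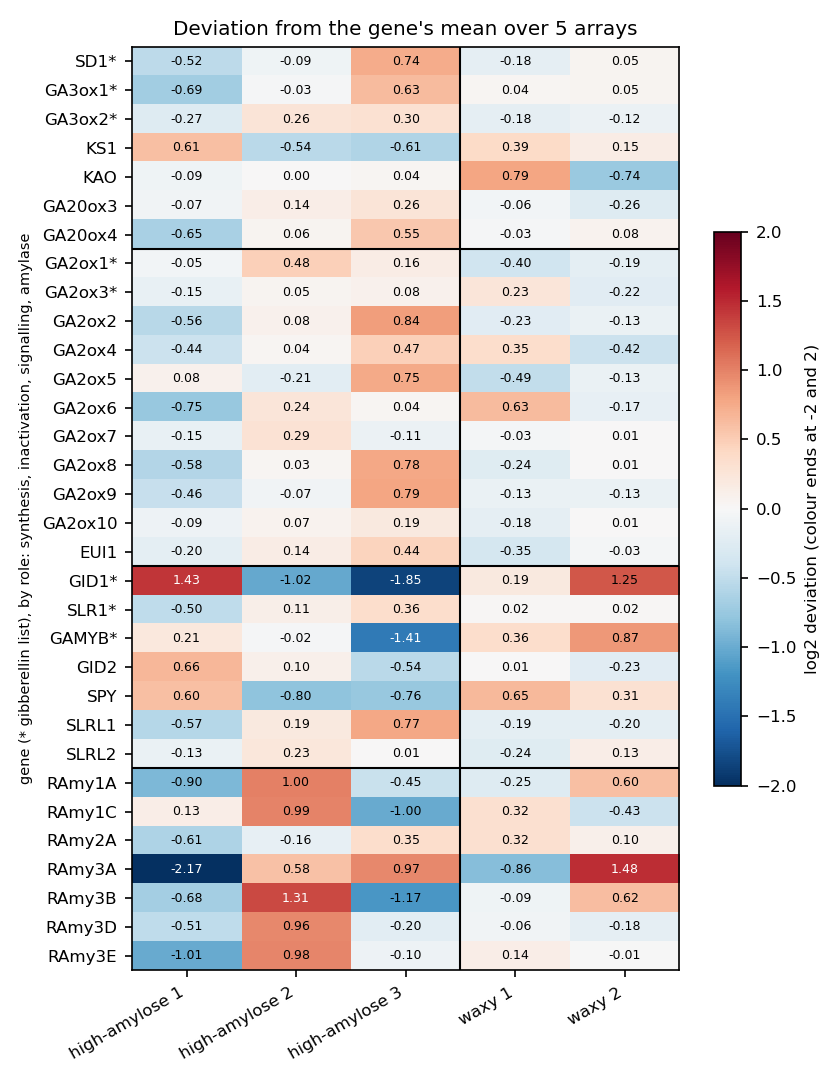
Deviation of each gene from its own mean over the 5 arrays (log2 units, printed in each cell and coloured), for the 8 tested members (marked with an asterisk) and 24 other pathway genes in rows by role, with the high-amylose arrays left and the waxy arrays right. Each gene is shown by its brightest probe. GID1, KS1 and SPY are high on high-amylose replicate 1 and low on replicates 2 and 3. Most inactivation genes are the other way round, and most amylases are highest on replicate 2.

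Likeness of pattern was measured as the root mean square difference between 2 loci over the 5 arrays, each centred on its own mean, among the 22559 loci whose representative probe was well above background on all arrays. This gave neighbours for 6 members, and 5 arrays describe a pattern only coarsely. The locus nearest to SD1 was LOC_Os03g53550 (0.0251, where the median locus was at 0.466), then LOC_Os02g53180 and LOC_Os10g04260. The nearest to GA3ox1 were LOC_Os10g05790, LOC_Os07g34220 and LOC_Os05g35700, and to SLR1 LOC_Os09g32984, LOC_Os01g52060 and LOC_Os01g11670. GA3ox2 was nearest to LOC_Os12g44340, LOC_Os12g07874 and LOC_Os06g47430, GA2ox1 to LOC_Os01g28590, LOC_Os01g53330 and LOC_Os01g57082, and GA2ox3 to LOC_Os02g45460, LOC_Os02g57470 and LOC_Os09g32976. Of the pathway genes, GA20ox4 came closest to GA3ox1, as its 27th neighbour (0.0630), and GA2ox8 closest to SD1, as its 49th (0.0721). For GA2ox3, GA2ox1, GA3ox2 and SLR1, the nearest pathway gene had rank 555, 843, 961 and 1096 among the neighbours.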

How the data were processed

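Per the file headers, Agilent Feature Extraction (version 11.5.1.1, protocol GE1_1105_Oct12) made the 5 single-colour files that the authors deposited, with a processed intensity per spot after background subtraction and spatial detrending. Per the file headers, other columns are 0 or 1 flags. A table of log2 values was also deposited by the authors. How these were normalized is not stated, and the submitters' processing notes name limma. Its differences between arrays followed quantile-normalized log2 intensity (r of 0.9996 to 0.9997 across probes, slopes of 0.989 to 0.992 over 10 pairs). The column medians lay at -0.0172, 0.0395 and 0.0270 in high-amylose seed and at -0.0227 and 0.00414 in waxy seed, and the baseline per probe stays unknown.

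Control spots were left out. Outlier spots were dropped before averaging the spots of each probe, and 0 spots were saturated. The value is log2 intensity minus the array's 75th percentile. Probes well above background on at least 2 arrays were tested (35634 of 59676), with the brightest probe for a locus (28945 loci). The group comparison used lmFit and eBayes of limma 3.58.1 (R 4.3.3), two-sided and with no covariate, at an adjusted p under 0.05, and was tested on simulated data. Exact permutation of 10 splits cannot go below 0.1. Replicate numbers follow deposit order and pair no arrays. P-values measure the spread between single arrays of different accessions. The number of arrays limits the precision. Alternatives were quantile scaling, normexp (offset 50, on median signals as no mean signal was among the columns), the deposited log2 values, other filters and probe rules, scan day, and leaving out each array.

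The members, lists and tests were chosen with earlier results of these data known. The named genes are all 9 members, 28 other pathway genes, the 3 nearest loci of each member and the embryo and aleurone markers. The files give locus names only, and RefSeq's table (assembly ASM3414082v1) holds none of them. Gene names are those usual for these loci in rice. Of 37 names, 21 were found in RefSeq, all 21 on the chromosome of the locus name. Markers were 6 endosperm, 4 embryo and aleurone and 6 green-layer loci. Sequences were not used here.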

Additional observations from a re-analysis of the deposited data

How the results depend on the processing

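The count of gibberellin members that passed was 0 under all 15 alternatives, and so was that of the other pathway genes, with at most 2 members and 2 other genes at an unadjusted limma p under 0.05. Over all loci, 8 passed with all arrays, 3 under quantile scaling, 3 in the deposited log2 values, 0 under normexp (645 at an unadjusted p under 0.05), 21 when each probe had to be detected on all 5 arrays, and 0 with a term for the scan day shared by high-amylose replicates 2 and 3 (1162) or without these arrays (1663). Leaving out 1 array gave 3 to 179, namely 9, 5 and 3 without high-amylose replicates 1, 2 and 3 and 72 and 179 without waxy replicates 1 and 2. Fits without a waxy array leave 1 waxy array, which is assumed to vary like the others. The same holds for high-amylose replicate 1, alone in its group without replicates 2 and 3. With the term for their scan day, the group difference also rests on replicate 1. With the term or without the arrays of that day, SD1 was at -0.46, GA3ox1 at -0.74, GA3ox2 at -0.12, SLR1 at -0.52 and GID1 at 0.71, against 0.11, -0.07, 0.25, -0.03 and -1.20. SD1 was at -0.031 with the mean of its probes. Without 1 array, SD1 ranged from -0.24 to 0.39, GA3ox1 from -0.40 to 0.26, GA2ox3 from -0.24 to 0.21 and SLR1 from -0.21 to 0.22. The cause was not tested. GA2ox1 and GAMYB kept their direction in every alternative that kept the locus. No paired analysis was made, as each array held another accession and the labels pair no arrays. Signal over background limits GID1, GAMYB and GA20ox1, whose brightest probes were below clear detection on 2, 1 and 5 of the 5 arrays, and the second GAMYB probe on 2.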

Other observations

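CPS1, the ent-copalyl diphosphate synthase of the first committed step, has 2 probes, and 1 of them was well above background on 1 array. That probe read -5.58, -4.93 and -4.78 on the high-amylose arrays, against -2.38 and -5.73 on waxy replicates 1 and 2. The other CPS1 probe read -5.74, -5.04 and -5.05 in high-amylose seed, against -5.79 and -5.88 in waxy seed, with no such value on waxy replicate 1. Both probes lie in 1 spot each.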
